A study of Mus musculus with 6 samples.

Results

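The response of the mammary epithelium to steroid and lactogenic hormones was examined through 9 genes of the 54418 gene identifiers in the count table of the series. The 9 genes, taken by name and all present, were the receptors *Esr1*, *Pgr*, *Prlr* and *Ghr*, the signal transducers *Stat5a* and *Stat5b*, and the response genes *Greb1*, *Tnfsf11* and *Cited1*. They were measured by total RNA sequencing in cells sorted from the mammary glands of 4-week-old C57BL/6 females, of which 3 were *Glis2*+/+ and 3 were *Glis2*-/-, with 1 library per mouse. *Glis2* encodes a zinc finger transcription factor of the Gli-similar family, and its mutation was carried in the germline, so that epithelium, stroma and the endocrine organs of these mice carried the same genotype. The comparison asked whether the hormone receptors and their response genes differed between the genotypes.

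Estrogen acts in the pubertal gland through estrogen receptor alpha, which is made by a subset of luminal cells and drives the elongation of the ducts. Progesterone acts through its receptor, itself an estrogen target, on the branching of the ducts, and passes its signal to neighbouring cells in part as RANK ligand. Prolactin and growth hormone bind related cytokine receptors that work through the kinase JAK2 and the transcription factors STAT5A and STAT5B, which drive alveolar growth and milk protein genes in pregnancy and lactation.

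Total estimated counts lay between 24996524 and 31393917 per library. *Glis2* itself was read in every library, at 21.7, 23.2 and 19.6 CPM (counts normalized to library size) in *Glis2*+/+ replicates 1, 2 and 3 and at 10.1, 17.0 and 16.3 CPM in *Glis2*-/- replicates 1, 2 and 3, so reads of the gene were lower in each mutant library but not absent. The mutant allele and the exons it alters are not given in the sources used here, so these reads do not say how much intact transcript remained. The cells had been stained for TER-119, CD31, CD45, CD24 and CD49f. The study describes the sorted cells as mammary epithelial cells, but which gate was collected is not given in the sources used here. The luminal keratin *Krt8* lay between 1238 and 1950 CPM and the basal keratin *Krt14* between 327 and 631 CPM. The fibroblast collagen *Col1a1*, however, lay between 670 and 2180 CPM and the endothelial gene *Pecam1*, which encodes CD31, between 44.6 and 198 CPM, so the libraries also held transcripts of other cell types. In bulk samples such as these, fewer cells of a type and less RNA per cell cannot be told apart.

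The 9 genes spanned a wide range of levels (see the plot of levels per length). To compare different genes, TPM, the level of transcripts per length, was rescaled to the same total over protein-coding genes in each library, because the noncoding gene *Gm23935* took 83.0 to 85.7% of all TPM. *Prlr* stood highest, with a mean of 663 ± 186 TPM (SD, n = 6 libraries), above 99.2% of protein-coding genes. It was followed by *Cited1* with 236 ± 42.0 TPM. *Esr1* (82.4 ± 21.2 TPM), *Stat5a* (75.8 ± 18.1 TPM), *Stat5b* (74.3 ± 14.5 TPM) and *Pgr* (69.9 ± 21.4 TPM) formed a group of like level, and *Ghr* came below them at 40.9 ± 8.30 TPM. *Greb1* (2.47 ± 3.44 TPM) and *Tnfsf11* (0.470 ± 0.723 TPM) were the lowest, and their SD exceeded their mean.

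The order held in every library at 3 steps. *Prlr* exceeded *Cited1* by 2.74-fold, *Cited1* exceeded *Esr1* by 2.91-fold and *Ghr* exceeded *Greb1* by 33.2-fold, each in 6 of 6 libraries (exact two-sided sign-flip permutation test, p = 0.0313 for each, the smallest that 6 libraries allow, and 0.0833 after adjustment over the 8 neighbouring pairs, which is the smallest this family reached). The fold between *Ghr* and *Greb1* depended on the library: it was 3.17 in *Glis2*+/+ replicate 2 and 13.4 to 152 in the others, and 53.1 without that replicate, in which the *Greb1* counts implied a transcript of 668 bases, against 1963 to 6539 bases elsewhere. *Pgr* exceeded *Ghr* by 1.67-fold in 5 of 6 libraries (exact p = 0.0625). Within the group of *Esr1*, *Stat5a*, *Stat5b* and *Pgr* the neighbours did not differ beyond their spread (exact p = 0.469, 0.938 and 0.656), and neither did *Greb1* and *Tnfsf11* (exact p = 0.156, higher in 5 of 6 libraries).

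**Figure D1:**
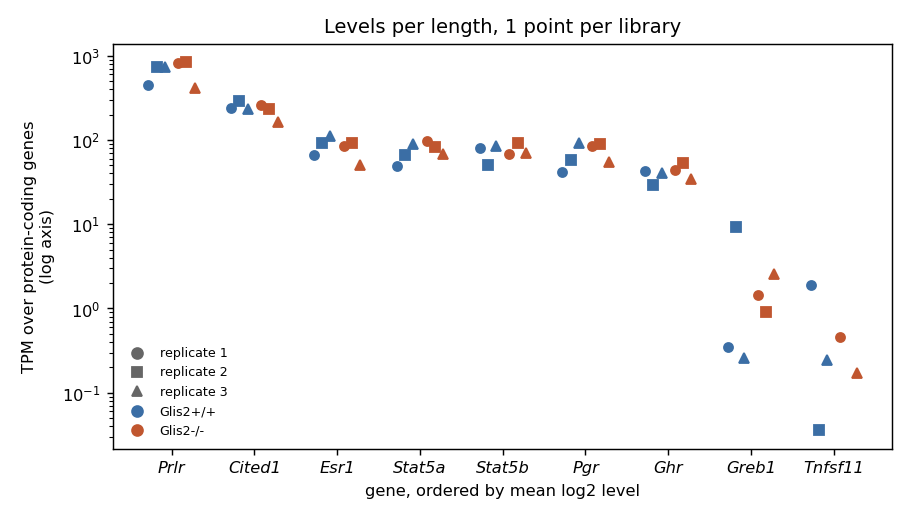
Level per length of the 9 genes, as TPM rescaled over protein-coding genes on a log axis, with 1 point per library, blue for *Glis2*+/+ and red for *Glis2*-/-, and a shape per replicate; the 1 library with 0 counts of *Tnfsf11* has no point. *Prlr* and *Cited1* stand above the rest with means of 663 and 236 TPM, while *Greb1* and *Tnfsf11* sit far below and scatter most.

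No difference between the genotypes passed the test for any of the 9 genes. Of the 8 that passed the filter on low counts (all but *Tnfsf11*), 6 had a higher and 2 a lower fitted level in *Glis2*-/- cells, with a median log2 fold change of 0.18, and *Prlr*, *Stat5b* and *Greb1* turned from higher to lower in fits to the TPM values. Over all 21236 genes tested, 51.6% were higher and the median was 0.01. edgeR's quasi-likelihood test called 0 of the 8 (adjusted p up to 0.05 with a log2 fold change of 0.58 or more in either direction), against 0% of all genes tested, and 0 of the 8 had an unadjusted p under 0.05, against 5.32% of all genes. DESeq2 called 0 of the 9, against 0.121% of the genes with a count. The CPM of the genotypes overlapped for each of the 9, whereas they did not overlap for 11.7% of the genes tested. The adjusted p of the 8 genes ran from 0.932 to 0.997 in edgeR. The width of the intervals set what could be seen: the interval of *Ghr* lay within the threshold of 0.58 on both sides, as did that of *Stat5b*, and that of *Greb1* reached from −1.14 to 1.91 (see the plot of fold changes).

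*Esr1*, which encodes estrogen receptor alpha, was at 98.9, 149 and 173 CPM in *Glis2*+/+ replicates 1 to 3 and at 146, 154 and 76.9 CPM in *Glis2*-/- replicates 1 to 3. The 2 lowest libraries came 1 from each genotype, and the values interleaved. The means were 140 ± 37.6 and 126 ± 42.5 CPM (SD, n = 3 mice), a log2 fold change of −0.16 (SE 0.28, 95% interval −0.80 to 0.48, edgeR adjusted p = 0.977).

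*Pgr*, the progesterone receptor gene, gave 98.1, 144 and 224 CPM in the wild type and 211, 215 and 129 CPM in the mutant. The wild-type group held both its lowest and its highest value. The log2 fold change was 0.26 (SE 0.30, 95% interval −0.42 to 0.93, edgeR adjusted p = 0.964), from means of 155 ± 63.5 and 185 ± 48.2 CPM (SD, n = 3).

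*Prlr*, the prolactin receptor gene, was at 570, 979 and 1002 CPM in *Glis2*+/+ and at 1015, 1129 and 478 CPM in *Glis2*-/- cells. As for *Esr1*, replicate 1 of the wild type and replicate 3 of the mutant lay well below the other 4 libraries, which fell within a narrow range. The genotype means, 850 ± 243 and 874 ± 348 CPM (SD, n = 3), were nearly equal, with a log2 fold change of 0.04 (SE 0.32, 95% interval −0.69 to 0.77, edgeR adjusted p = 0.997).

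*Ghr*, the growth hormone receptor gene, varied least of the 9 in CPM relative to its level, though not in TPM. It gave 28.9, 31.0 and 31.4 CPM in the wild type and 36.4, 40.7 and 30.5 CPM in the mutant. Mutant replicates 1 and 2 were above all wild-type values, and replicate 3 fell among them. The log2 fold change was 0.24 (SE 0.14, 95% interval −0.09 to 0.56), which did not pass the test (edgeR adjusted p = 0.932, the lowest of the 8 genes).

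**Figure D2:**
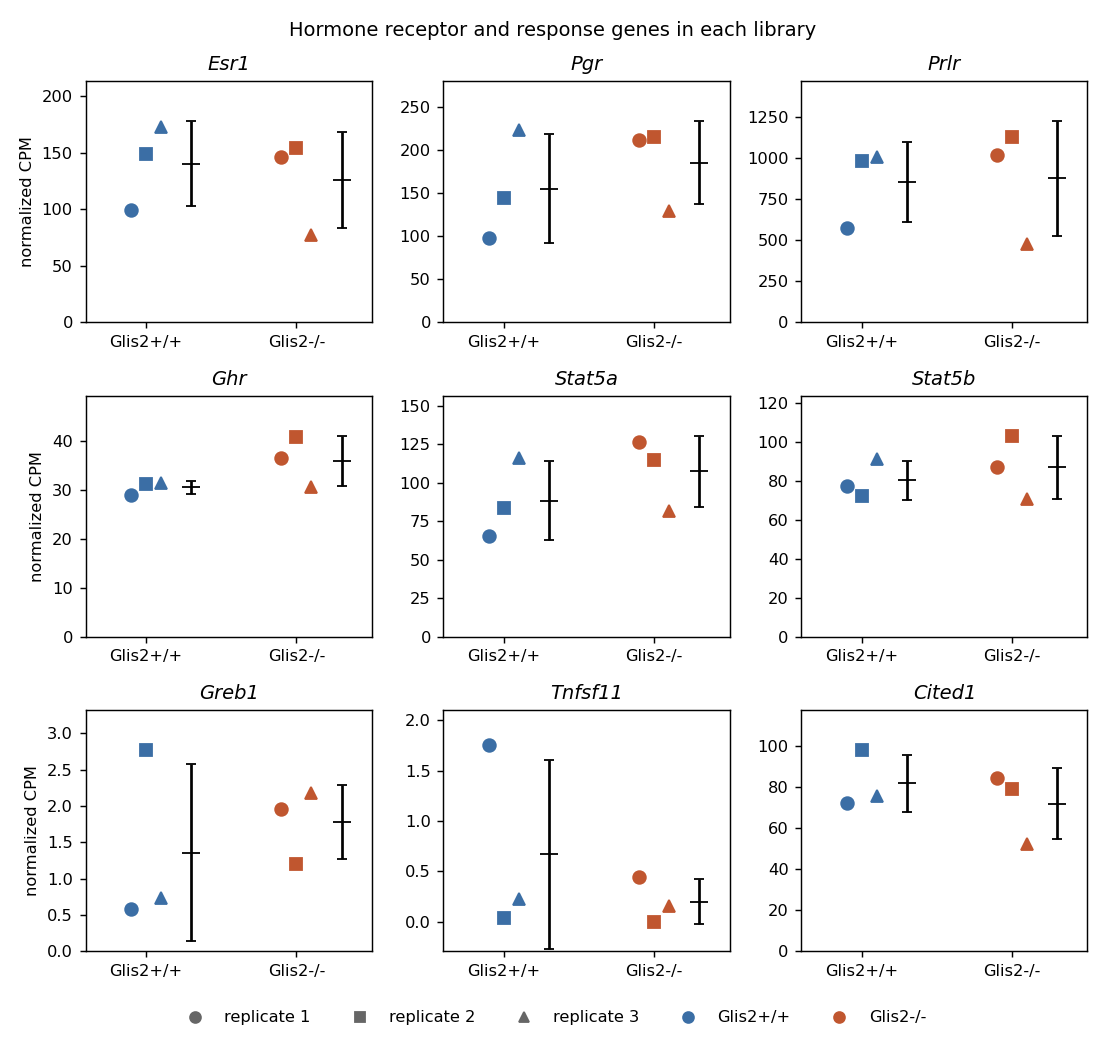
Normalized CPM of the 9 genes in each library, by genotype, with a shape per replicate and the mean ± SD (n = 3) beside the points in black. The genotypes overlap for every gene, and *Esr1* and *Prlr* share their 2 lowest libraries.

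*Stat5a* and *Stat5b* lie side by side on chromosome 11 (GRCm38), *Stat5a* at 100859351-100885169 on the plus strand and *Stat5b* at 100780731-100850724 on the minus strand, 8627 bases apart. Their coding sequences share an identical run of 324 bases, in exons 7 to 9 of the 20 of *Stat5a* (chr11:100874023-100874983) and exons 6 to 8 of the 19 of *Stat5b* (chr11:100797741-100798701). A pair of reads that falls wholly within such a run can be placed on either gene. Of all windows of 40 bases, 9.80% of those of *Stat5a* and 13.0% of those of *Stat5b* occurred in the other gene, and of the 36 pairs among the 9 genes this was the 1 pair that shared any window. The 720 shared windows are more than this run holds, so other stretches are shared too. The ends of the run are shown to mark the bases that differ on either side of it. Each stretch is read from the coding strand 5′ to 3′, and capitals mark the base that differs between the genes.
Stat5a, start of the run, exon 7, chr11:100874003-100874062, plus strand: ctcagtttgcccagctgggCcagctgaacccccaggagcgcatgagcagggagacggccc
Stat5b, start of the run, exon 6, chr11:100798662-100798721, minus strand: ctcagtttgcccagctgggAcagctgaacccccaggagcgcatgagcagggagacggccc
Stat5a, end of the run, exon 9, chr11:100874944-100875003, plus strand: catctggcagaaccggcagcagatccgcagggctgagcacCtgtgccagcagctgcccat
Stat5b, end of the run, exon 8, chr11:100797721-100797780, minus strand: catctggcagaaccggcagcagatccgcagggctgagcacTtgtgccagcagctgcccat

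The division of counts between these paralogs is therefore uncertain for read pairs wholly within this run or the other shared stretches. *Stat5a*, the main STAT5 gene of lobuloalveolar development, gave 65.3, 83.9 and 116 CPM in *Glis2*+/+ and 126, 115 and 81.8 CPM in *Glis2*-/- cells. The genotypes overlapped, with a log2 fold change of 0.28 (SE 0.23, 95% interval −0.24 to 0.80, edgeR adjusted p = 0.941). Its paralog *Stat5b*, known for its part in growth hormone signalling, gave 77.5, 72.0 and 91.5 CPM in the wild type and 87.1, 103 and 70.6 CPM in the mutant, with a log2 fold change of 0.11 (SE 0.16, 95% interval −0.25 to 0.47, edgeR adjusted p = 0.973). The sum of *Stat5a* and *Stat5b* does not depend on how reads within the shared stretches were divided. It was 143, 156 and 207 CPM in the wild type and 213, 218 and 152 CPM in the mutant, again with overlap (169 ± 34.1 against 194 ± 36.4 CPM, SD, n = 3, exact two-sided permutation p = 0.3, where 0.1 is the smallest that 3 against 3 allows).

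Of the response genes, *Cited1*, which encodes a transcriptional coregulator made in hormone-sensing luminal cells, was the most abundant. It was at 72.2, 97.9 and 75.4 CPM in *Glis2*+/+ and at 84.5, 79.0 and 52.2 CPM in *Glis2*-/- cells. The lowest library was mutant replicate 3, and the others overlapped, with a log2 fold change of −0.19 (SE 0.20, 95% interval −0.64 to 0.26, edgeR adjusted p = 0.953).

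*Greb1*, an estrogen-induced gene whose product binds estrogen receptor alpha, had few counts at this depth. There were 18, 79 and 19 counts in the wild type and 49, 36 and 68 counts in the mutant. The wild-type group again held the lowest and the highest value, and the log2 fold change of 0.39 carried an SE of 0.67 (edgeR adjusted p = 0.977). The length implied by the ratio of count to TPM ran from 668 bases in wild-type replicate 2 to 6539 bases in wild-type replicate 3. The annotated transcripts of the gene run from 362 to 8058 bases. Whether the transcripts themselves differed between libraries was not tested, and the counts were few. For *Prlr* this implied length stayed between 2696 and 3173 bases and for *Pgr* between 5338 and 5781 bases, but for *Ghr* it ran from 1623 to 2362 bases and for *Stat5b* from 2319 to 3161 bases. The levels per length of these genes, *Greb1* most of all, thus rested on lengths that differed between libraries.

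*Tnfsf11*, which encodes RANK ligand, had 54, 1 and 6 counts in *Glis2*+/+ and 11, 0 and 5 counts in *Glis2*-/- cells. A single wild-type library held most of its counts, and the gene did not pass the filter on low counts. In the mutant library with 0 counts, the limit that a count of 0 allows (3 counts) is 0.0963 CPM. No difference was detectable at this depth (exact two-sided permutation p = 0.6 on log2(CPM + 1)).

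**Figure D3:**
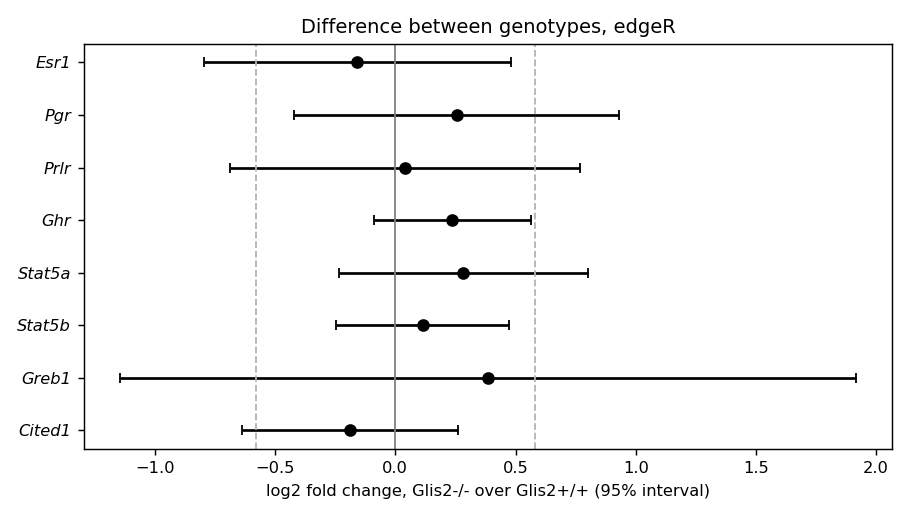
Log2 fold change of the 8 genes tested, *Glis2*-/- over *Glis2*+/+, as points with 95% intervals from edgeR, with dashed lines at the threshold of 0.58 in both directions. Every interval includes 0, and that of *Greb1* is the widest at −1.14 to 1.91.

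Libraries of the same genotype differed widely. *Glis2*+/+ replicate 1 and *Glis2*-/- replicate 3 were the 2 lowest libraries for *Esr1*, *Pgr*, *Prlr* and *Stat5a*, and they were also the 2 lowest in the luminal keratins *Krt8*, *Krt18* and *Krt19* (see the plot of levels across libraries). The mean log2 CPM of these keratins was 9.78 and 9.83 in that pair of libraries and 10.17 to 10.48 in the other 4. Relative to its mean over the libraries, *Prlr* was lower by 0.53 and 0.78 on the log2 scale in the pair, and between 0.25 and 0.46 higher in the others. *Esr1* was lower by 0.37 and 0.73, and *Pgr* by 0.72 and 0.33. *Ghr* and *Stat5b* moved little, within 0.31 of their means.

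Across the 6 libraries, the level of *Prlr* followed that of the luminal keratins with a Pearson r of 0.92 (exact permutation p = 0.0278, adjusted p = 0.279 over 14 relations of 7 genes with luminal keratins and fibroblast markers) and a Spearman rho of 0.77 (exact permutation p = 0.103, adjusted p = 0.476). Without the 2 libraries farthest from the median keratin level, which were the low pair, r was 0.51. For *Esr1*, r was 0.83 (exact permutation p = 0.0597, adjusted p = 0.279) and rho 0.60 (exact permutation p = 0.242, adjusted p = 0.564), and r became −0.52 without the pair, so that relation rested on those libraries. None of the 14 relations passed the adjustment. The part of the share of luminal cells in these levels was not tested.

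Set against the luminal keratins of its own library, *Prlr*, *Esr1*, *Pgr*, *Cited1* and *Stat5a* spread less over the libraries. The range narrowed from 1.24 to 0.72 on the log2 scale for *Prlr*, from 1.15 to 0.81 for *Esr1*, from 1.18 to 0.90 for *Pgr*, from 0.89 to 0.57 for *Cited1* and from 0.94 to 0.76 for *Stat5a*. It was 1.25 before and 1.22 after for *Greb1*. It widened for *Tnfsf11*, from 1.46 to 2.16, for *Stat5b*, from 0.54 to 0.76, and for *Ghr*, from 0.48 to 0.59. On this relative scale the genotypes still overlapped for all 9 genes. The difference of mutant minus wild type was −0.24 for *Esr1*, 0.24 for *Pgr*, −0.07 for *Prlr*, 0.16 for *Ghr*, 0.24 for *Stat5a*, 0.04 for *Stat5b*, 0.28 for *Greb1*, −0.42 for *Tnfsf11* and −0.26 for *Cited1* (exact two-sided permutation p between 0.2 and 1, smallest possible 0.1). Without both low libraries, edgeR called 0 genes in all, and *Tnfsf11* was not tested.

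**Figure D4:**
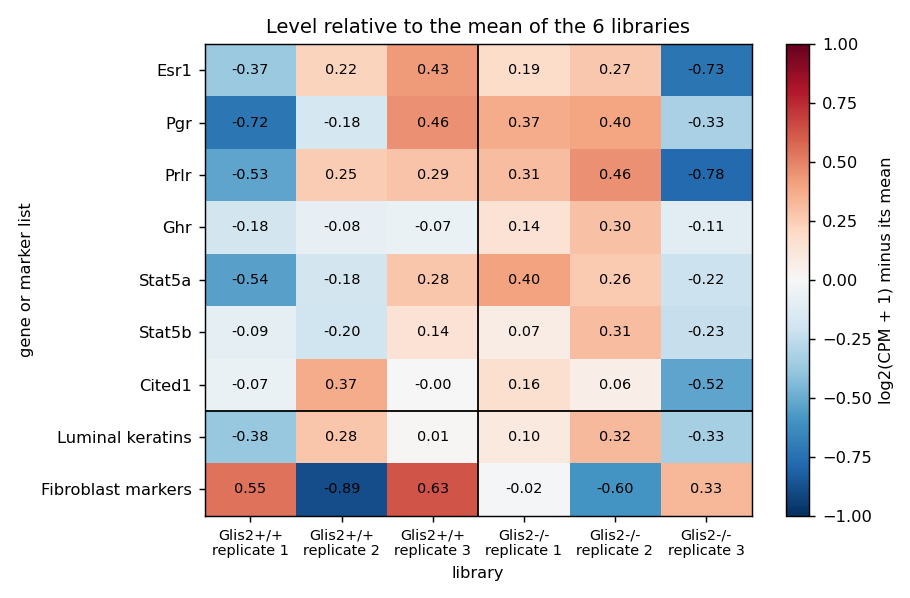
Level of 7 of the genes, of the luminal keratins and of 6 fibroblast markers in each library, as log2 minus the mean over the 6 libraries, with red for higher and blue for lower. The columns of *Glis2*+/+ replicate 1 and *Glis2*-/- replicate 3 are blue from *Esr1* to *Cited1* and for the keratins, with *Prlr* at −0.53 and −0.78.

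Markers of the cell types that the glands hold moved beside these genes as follows. The 6 luminal markers summed to 3223 to 5326 CPM in *Glis2*+/+ and 3284 to 5418 CPM in *Glis2*-/- libraries, and the 4 luminal progenitor markers to 230 to 648 and 192 to 631 CPM. The 7 basal markers summed to 4155 to 5404 CPM in the wild type and 5605 to 6810 CPM in the mutant. These sums did not overlap, but the genotypes overlapped for each of the 7 genes taken alone (they did not for 11.7% of all genes), and *Myh11* and *Acta2* made up most of the sum. By fitted level, 7 of 7 were higher in the mutant (51.6% of all genes were), 3 of them at an unadjusted p under 0.05 in edgeR (5.32% of all genes) and 0 called. Of the 6 immune markers 5 were higher, 2 at an unadjusted p under 0.05, and of the 5 adipocyte markers 4 were lower, 1 at an unadjusted p under 0.05. No luminal, luminal progenitor, fibroblast, endothelial or skeletal muscle marker had one, and 0 markers were called. The 6 fibroblast markers ranged from 2293 to 7727 CPM and from 2585 to 5884 CPM, so stromal transcripts varied widely within a genotype. The endothelial sums were 106 to 578 and 164 to 600 CPM, and the immune sums 18.1 to 33.3 and 32.7 to 68.7 CPM, with *Ptprc*, which encodes CD45, at 7.98 to 11.0 and 14.5 to 38.7 CPM. Adipocyte markers summed to 52.3 to 309 and 94.8 to 263 CPM, most of it from *Fabp4*, which endothelial cells also express. *Adipoq*, a defining adipocyte gene, gave 1.85, 1.30 and 4.07 CPM in the wild type and 1.04, 0 and 0.575 CPM in the mutant, without overlap. *Plin1*, a lipid droplet gene chosen after its values were seen, was the adipocyte marker with an unadjusted p under 0.05 (log2 fold change −1.37, SE 0.46, edgeR adjusted p = 0.906). The skeletal muscle sums were 2.87 to 14.5 and 4.76 to 7.98 CPM. The part of these other cell types in the levels of the 9 genes was not tested.

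The genes were also compared with each other within a library. Among the 7 genes with at least 100 counts in every library there are 21 pairs, and the ratio did not overlap between the genotypes for 3 of them (see the plot of ratios; exact two-sided permutation p = 0.1 for each, the smallest that 3 against 3 allows). Of all pairs of the 11660 genes with as many counts, 12% did not overlap, so the count among these genes was near the background. The 3 ratios were picked after their values were seen and are given as a description. *Pgr* per *Esr1* was 0.992, 0.963 and 1.30 in *Glis2*+/+ and 1.45, 1.39 and 1.68 in *Glis2*-/- replicates 1 to 3. The mutant values were all above the wild-type values, by 1.39-fold on average (a log2 difference of 0.48, with SDs of 0.23 and 0.14, n = 3). *Stat5a* per *Esr1* ran from 0.562 to 0.672 in the wild type and from 0.742 to 1.06 in the mutant. *Ghr* per *Cited1* ran from 0.317 to 0.416 and from 0.431 to 0.584.

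**Figure D5:**
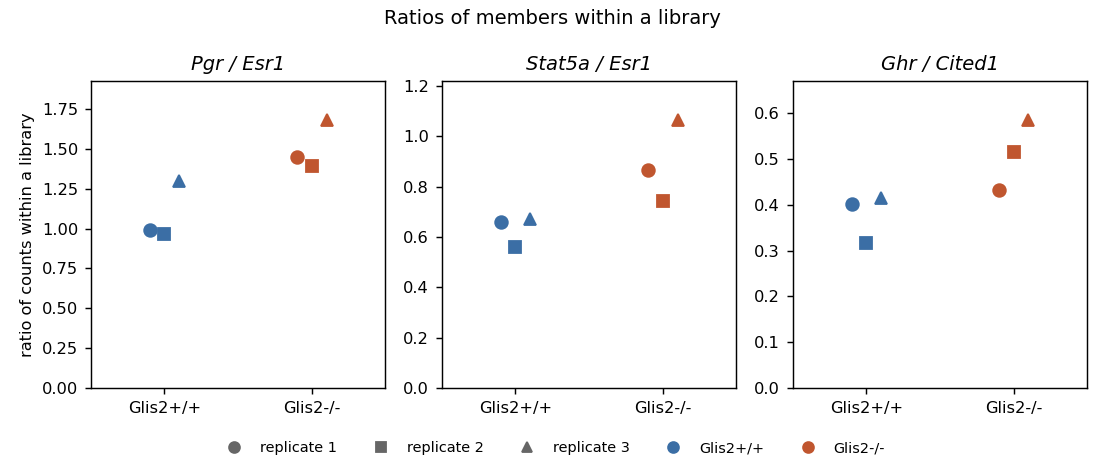
Ratio of the counts of 2 genes within a library, for the 3 pairs that did not overlap between genotypes, with 1 point per library, a shape per replicate and axes from 0. The mutant libraries sit above the wild-type libraries in each panel, with *Pgr* per *Esr1* at 1.39 to 1.68 against 0.963 to 1.30.

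The wider pathway was read from 4 lists of 44 other genes, of which 41 were tested, 24 of them higher and 17 lower in the mutant. edgeR called 0 of the 41 and DESeq2 also 0, and 2 (4.88%) had an unadjusted p under 0.05 in edgeR, near the 5.32% of all genes. Of the 12 steroid receptors and coregulators, 3 were higher and 9 lower, 0 at an unadjusted p under 0.05, with a median log2 fold change of −0.04. *Esr2*, which encodes estrogen receptor beta, had 4 to 28 counts per library (log2 fold change −0.46, SE 0.89), so its level was poorly measured.

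Of the 17 genes of hormone-sensing luminal cells or of estrogen and progesterone targets, 14 were tested, 9 higher and 5 lower, 0 at an unadjusted p under 0.05, with a median log2 fold change of 0.11. The untested genes were *Calca*, with at most 2 counts in a library, *Tff1*, with 0 counts in all 6, and *Pdzk1*, with at most 6. *Stc2*, which encodes the secreted glycoprotein stanniocalcin 2, had the largest fold change, with 139, 171 and 274 CPM in the wild type and 329, 295 and 159 CPM in the mutant (log2 fold change 0.42, SE 0.31). Its highest values were in mutant replicates 1 and 2, and its 2 lowest were in the pair of libraries low in luminal keratins, as for *Pgr*. *Cxcl12*, a chemokine gene, had a log2 fold change of 0.41 (SE 0.41).

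Of the 12 genes of prolactin and growth hormone signalling, 9 were higher and 3 lower, 1 at an unadjusted p under 0.05, with a median of 0.09. That gene was *Socs2*, a STAT5 target that restrains growth hormone signalling, with 36.0, 32.4 and 36.6 CPM in *Glis2*+/+ and 22.8, 26.5 and 30.6 CPM in *Glis2*-/- cells. The genotypes did not overlap, but the log2 fold change of −0.39 (SE 0.15) did not pass the adjustment (edgeR adjusted p = 0.906). *Socs3* of the same list did not overlap either, but was higher in the mutant (log2 fold change 0.17, SE 0.089). Over the 4 lists, 3 of the 41 genes tested (7.32%) did not overlap, below the 11.7% of all genes tested. *Igf1*, the growth factor that growth hormone induces in mammary stroma, ranged from 8.38 to 38.6 CPM over the libraries (log2 fold change −0.62, SE 0.53). Its 2 lowest libraries were replicate 2 of each genotype, which were also the 2 lowest in the fibroblast markers.

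The 3 genes of RANK ligand reception were all higher in the mutant, 1 at an unadjusted p under 0.05, with a median of 0.03. *Tnfrsf11b*, which encodes osteoprotegerin, the soluble decoy receptor, gave 5.77, 6.06 and 4.22 CPM in the wild type and 12.2, 5.24 and 13.0 CPM in the mutant. Mutant replicate 2 lay among the wild-type values, and the log2 fold change of 0.92 (SE 0.36) did not pass the adjustment (edgeR adjusted p = 0.906). *Tnfrsf11a*, which encodes the receptor RANK, was at 32.9, 32.2 and 33.5 CPM in the wild type and 32.7, 27.5 and 40.2 CPM in the mutant. The wild-type values lay within the range of the mutant values (log2 fold change 0.03, SE 0.16).

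The genes most like the receptors across libraries were found by the Pearson correlation of their log2 CPM with the mean of *Esr1*, *Pgr* and *Prlr* over the 6 libraries, among 11653 genes with at least 100 counts in every library. The nearest was *Cd24a* (r = 0.996), which encodes CD24, an antigen stained for the sort. It gave 272, 372 and 445 CPM in *Glis2*+/+ and 426, 465 and 258 CPM in *Glis2*-/- replicates 1 to 3, with the same low pair of libraries. *Zfand6* (r = 0.994), *Chrnb1* (r = 0.993), *Fgd4* (r = 0.992) and *G6pdx* (r = 0.991) followed. These are descriptions over 6 points, picked as the highest of many.

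Motifs were searched in the 18 RefSeq promoter windows of the 9 genes (GRCm38.p6, 250 bases before to 50 after a start site), on both strands. The estrogen response element GGTCANNNTGACC was in 0 of the 18, against 0.0700% of all 32851 windows. Its arm GGTCA, which is contained in that element, was in 8 of the 18, those of *Cited1*, *Esr1*, *Greb1*, *Stat5a* and *Stat5b*, against 40.5% of all windows. The STAT binding element TTCNNNGAA was in 2 of the 18, 1 of *Esr1* and 1 of *Prlr*, against 8.30% of all windows. Both held it with the letters TTCTAGGAA, found in 0.411% of all windows, a form looked up after the matches were seen. These windows are shown as the ones with a match. The windows of the other genes had no match to TTCNNNGAA, and the relation of matches to levels was not tested. The *Esr1* and *Prlr* windows shown lie at start sites within the annotated gene, on the plus strand, with the element in capitals.
Esr1, chr10:4709908-4710207: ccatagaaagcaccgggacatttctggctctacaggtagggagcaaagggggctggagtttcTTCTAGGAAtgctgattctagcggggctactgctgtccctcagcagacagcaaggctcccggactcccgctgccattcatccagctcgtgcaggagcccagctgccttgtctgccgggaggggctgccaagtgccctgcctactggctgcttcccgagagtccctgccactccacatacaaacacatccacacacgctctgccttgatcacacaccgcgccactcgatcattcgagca
Prlr, chr15:10223656-10223955: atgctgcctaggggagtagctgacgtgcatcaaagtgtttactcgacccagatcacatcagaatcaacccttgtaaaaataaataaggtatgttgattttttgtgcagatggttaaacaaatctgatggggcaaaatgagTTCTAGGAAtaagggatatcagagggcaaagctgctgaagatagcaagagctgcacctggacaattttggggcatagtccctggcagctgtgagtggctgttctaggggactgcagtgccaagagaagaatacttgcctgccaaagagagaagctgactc
A match is a description of the letters and not evidence of binding.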

How the data were processed

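The counts are the authors' estimated counts per gene, made with Salmon 1.2.1 and tximport on mm10 transcripts and deposited as whole numbers without normalization. The deposited log2 values are log2(TPM + 1), made by the authors from the same quantification. Libraries were made from 1 ng of total RNA by a stranded kit with 4 min of fragmentation and 15 cycles of PCR, and, per the study's methods, 15 further cycles after ZapR treatment. Of 54418 identifiers, 54166 were matched to the GENCODE annotation of GRCm38 for symbols and positions.

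Genotypes were compared on all 3 *Glis2*+/+ and 3 *Glis2*-/- libraries with edgeR 4.0.16 (R 4.3.3): filterByExpr, TMM normalization, the quasi-likelihood test and Benjamini-Hochberg adjustment over 21236 genes, with calls made up to an adjusted p of 0.05 for log2 fold changes of 0.58 or more in size. The common biological coefficient of variation was 37.4%. CPM are TMM-normalized. Single genes were also compared on log2(CPM + 1) by exact two-sided permutation, and neighbours in level by sign flips of log2(TPM + 0.01) differences. The scripts were tested on simulated data. Alternatives were DESeq2 1.42.0 with apeglm 1.24.0, limma 3.58.1 on log2 TPM values, other normalizations and filters, marker covariates, the replicate number as a block, and removal of each mouse in turn. The labels number the mice but do not pair them. Each library is labelled as a separate sample, and p-values measure the spread between these samples.

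The genes and lists were chosen with earlier results of these data known. All 9 genes are named. Of each list, genes with an unadjusted p of at most 0.05 and the 2 with the largest absolute fold change are named, with defining markers, *Glis2* and the 5 genes most like *Esr1*, *Pgr* and *Prlr*. A result that this rule selects is not reported here. *Calca*, *Tff1* and *Pdzk1* were named after their counts were seen, as untested genes. *Myh11*, *Acta2*, *Fabp4* and *Socs3* were also named after their values were seen. The limit that a count of 0 allows covers counting error only. *Stat3* overlaps *Stat5a* on the opposite strand, *Gm21973* (0 counts) overlaps *Prlr*, and *Gm48140* and *Gm44305* overlap *Greb1*. Protein sequences were not used here.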

Additional observations from a re-analysis of the deposited data

How the results depend on the processing

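Of the 9 genes, none of those tested was called under 17 alternatives, of which 9 tested *Tnfsf11*. The count over all genes, 0 in the edgeR test, was 45 with DESeq2 and apeglm, 40 without a filter on low counts, 1 with log2(TPM + 0.1) in limma, and 6 each with a luminal or a fibroblast marker covariate. The cause was not tested. It was 0 with a replicate block, which called none of these genes either. Samples with the same number deviated together with correlations of −0.04, 0.35 and 0.07, and 2 of the 3 numbers had their own partner as the closest. So few values cannot decide whether the numbers mark pairs. The numbers were not taken as pairs because the labels do not pair the mice. Directions of small differences changed. The log2 fold change of *Prlr* was −0.077 with log2(TPM + 1), −0.079 with log2(TPM + 0.1), −0.0020 with the replicate block, −0.098 with the luminal covariate and −0.078 with the fibroblast covariate. That of *Stat5b* was −0.032 and −0.033 in these TPM fits. That of *Greb1* was −0.16 with log2(TPM + 1), −0.11 with log2(TPM + 0.1) and −0.17 without both libraries low in luminal keratins, an alternative chosen after the data were seen.

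Without 1 mouse, the log2 fold change ran from −0.38 to 0.082 for *Esr1*, −0.0094 to 0.61 for *Pgr*, −0.20 to 0.32 for *Prlr*, −0.035 to 0.23 for *Stat5b*, 0.0068 to 1.43 for *Greb1*, 0.086 to 0.53 for *Stat5a*, 0.13 to 0.33 for *Ghr* and −0.32 to −0.018 for *Cited1*. The highest value of *Greb1* came without wild-type replicate 2, and those of *Pgr* and *Stat5a* without wild-type replicate 3, where their unadjusted p in edgeR was 0.0497 and 0.0403 and their adjusted p 0.999. The difference in log2(CPM + 1) ran from −0.41 to 0.13 for *Esr1*, −0.28 to 0.38 for *Prlr*, −0.027 to 0.24 for *Stat5b*, −0.63 to 0.072 for *Tnfsf11* and −0.33 to 0.010 for *Cited1*. Relative to the luminal keratins it ran from −0.19 to 0.14 for *Prlr*, −0.18 to 0.20 for *Stat5b*, −0.011 to 0.58 for *Greb1* and −0.84 to 0.19 for *Tnfsf11*. Fold changes turned without wild-type replicate 3 or mutant replicate 3 (*Esr1*), wild-type replicate 1 (*Pgr*, *Prlr*), mutant replicate 1 (*Prlr*) or mutant replicate 2 (*Prlr*, *Stat5b*), and the differences of *Tnfsf11* without wild-type replicate 1 and of *Cited1* without mutant replicate 3. The log2 difference in *Pgr* per *Esr1* stayed between 0.40 and 0.61. That ratio was picked because it did not overlap between the genotypes, so its sign could not turn without 1 mouse. The fold changes of *Ghr* and *Stat5a* stayed positive. In the order of levels, 32 to 35 of 36 pairs kept their order. *Greb1* and *Tnfsf11* had the fewest counts and the widest spread relative to their mean.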
